A study of Mus musculus with 4 samples.

Results

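The peroxisome proliferator-activated receptors (PPARs) and a set of their fatty acid response genes were followed in smooth muscle cells grown from mouse aortas. They comprised 10 named genes: the receptors Ppara, Ppard and Pparg, and the response genes Angptl4, Cpt1a, Pdk4, Lpl, Fabp4, Ucp2 and Acadvl. All probes whose RefSeq accession maps to one of these symbols were taken, which gave 14 probes for the 10 genes among 21367 genes on the array. Of the 10 genes, 9 were well above background on all 4 arrays, and Ucp2 was on none.

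Each group was 1 array with 1 colour, hybridised with RNA that the labels describe as pooled from a triplicate, from cells of passages 12 to 16 of C57BL/6J origin. The labels give 5 aortas as the source and no number for each genotype. The L2AKO LDL group was LAMP-2AKO cells (L2AKO), which lack the lysosomal receptor of chaperone-mediated autophagy, given LDL at 150 µg/ml LDL-cholesterol with 0.1 U/ml bovine lipoprotein lipase. The L2AKO control group was the same line without LDL, the WT LDL group was wild-type cells (WT) given LDL and lipase, and the WT control group was wild-type cells without LDL. All 4 groups spent 24 h in medium with 5% lipoprotein-deficient serum, and the labels leave unclear whether cells without LDL had lipase. Since there was 1 array per group, the spread between cultures is unknown, and no test between groups was possible. The labels describe 1 isolation of cells for each genotype.

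PPARs are nuclear receptors that bind DNA as pairs with a retinoid X receptor and are switched on by fatty acids and fatty acid derivatives. Lipoprotein lipase frees fatty acids from the triglyceride of lipoproteins, and these can reach the receptors once inside a cell. Known targets include the lipase inhibitor Angptl4, the mitochondrial fatty acid importer Cpt1a and Pdk4, a kinase that turns cells from glucose towards fatty acid use.

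Levels are log2 processed signals minus the 75th percentile of the array, so a level of 0 is the brightness of that percentile, and the level of one probe cannot be set against that of another. Differences are log2 values of 1 array minus another, called at 1.5-fold. The scanner software's own error estimate gave 0.20 to 0.21 log2 units for a difference between arrays of the members' brightest probes, Ucp2 aside, and covers the spot only. Between spots printed repeatedly on an array the median SD was 0.045 to 0.054.

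The 75th percentile of the processed signal lay between 318.8 and 433.8, the share of probes well above background between 47.2% and 52.0%, and saturation was found at 0 spots. Of the 2 slides, one held the L2AKO LDL array and the other the remaining 3, and 7 of 8 spike-in controls on L2AKO LDL lay outside the range of those 3 arrays. Group and slide cannot be told apart for any value that uses L2AKO LDL. Lamp2, the targeted gene, had levels of 6.09 in L2AKO LDL, 6.33 in L2AKO control, 6.38 in WT LDL and 6.29 in WT control on one probe, and of 2.41, 2.30, 3.74 and 3.68 in the same order on the other. Between the lines the first probe was at -0.29 with LDL and 0.04 without, and the second at -1.32 and -1.38. The probes are named by different RefSeq transcripts. The part of Lamp2 that was deleted could not be matched to either probe. Of 6 contractile smooth muscle markers, Acta2, Tagln, Cnn1 and Smtn were well above background on every array, whereas Myh11 and Lmod1 were not on any.

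**Figure D1:**
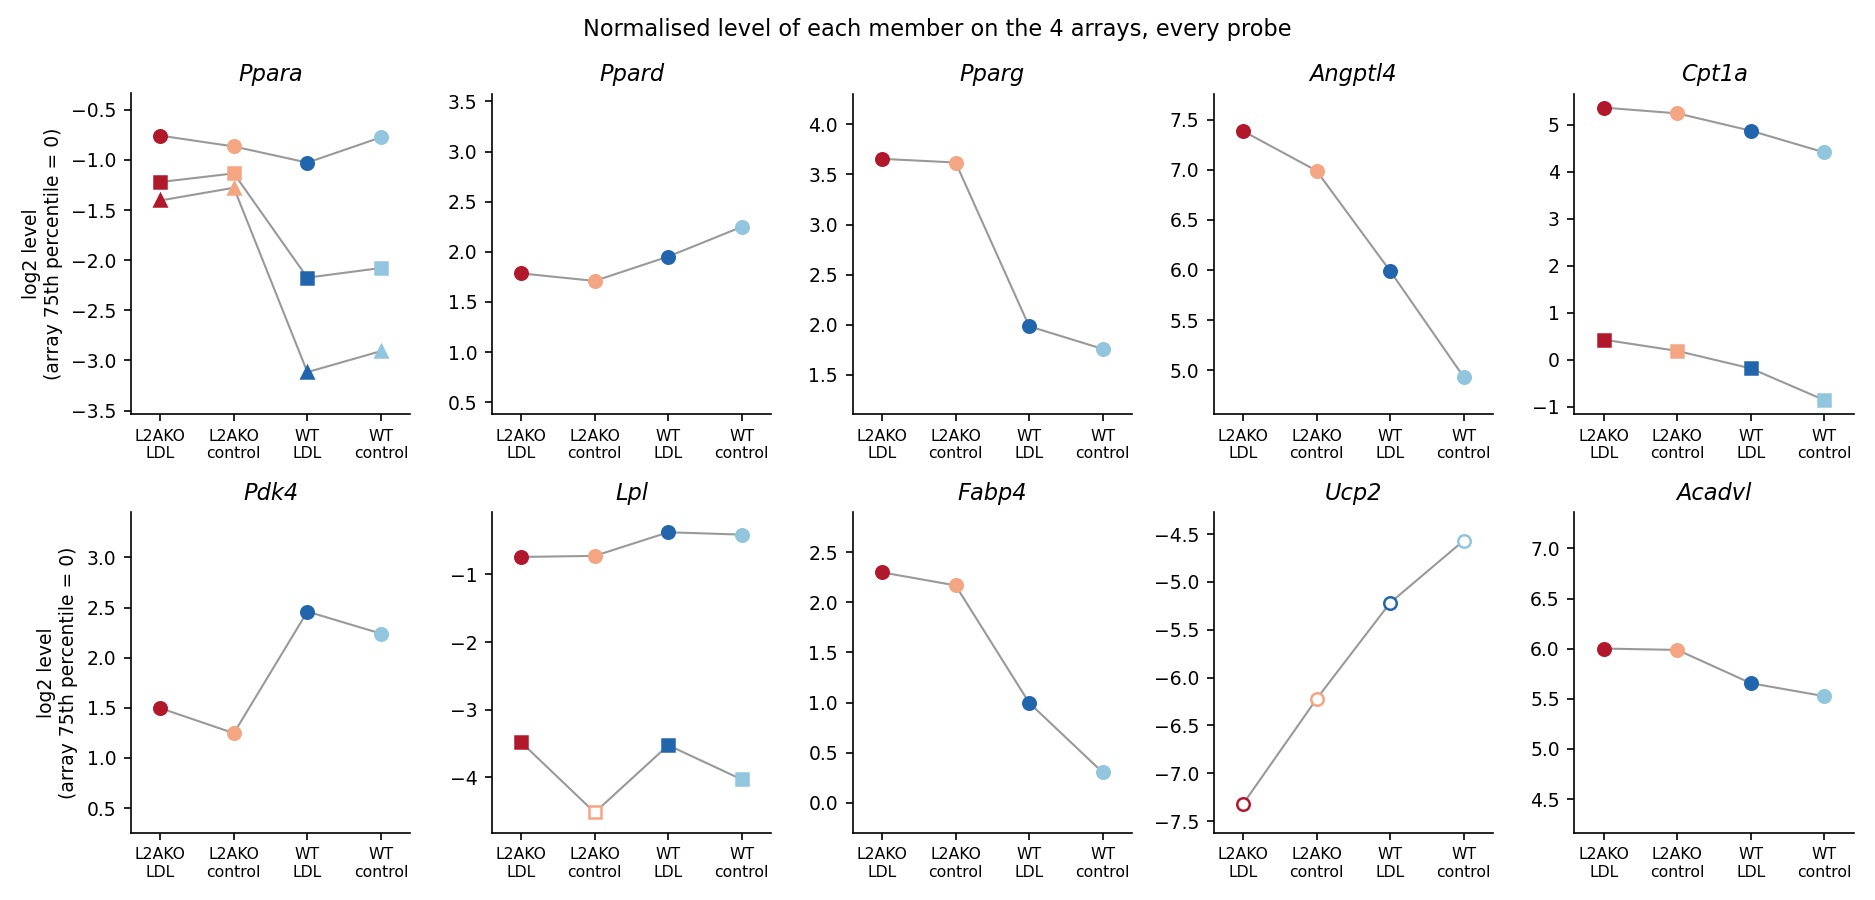
Normalised log2 level (vertical axis, own range per panel) of each of the 10 genes on the 4 arrays. Each line is 1 probe, circles mark the probe that stands for the gene, and open symbols mark spots not well above background. Angptl4 and Fabp4 step down from L2AKO LDL through L2AKO control and WT LDL to WT control, Pparg separates the lines, and Pdk4 is lower on both L2AKO arrays.

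With LDL and lipase, Angptl4 was 1.32-fold higher in L2AKO cells and 2.08-fold higher in WT cells. Fabp4 and Cpt1a were also higher beyond 2 scanner errors in WT, whereas the receptors themselves differed by at most 0.30 log2 units with LDL in either line on the probes that stand for them. In L2AKO, 0 of 9 measured members passed 1.5-fold in either direction with LDL, against 3.34% of 13008 measured genes higher and 4.55% lower. In WT, 2 of 9 were at least 1.5-fold higher, against 1.25% of 12977 genes, and none was lower by that much, against 2.46%. The background shares for a difference in either direction were 7.89% in L2AKO and 3.71% in WT. The members' median difference was 0.11 in L2AKO, where the median of all genes was -0.08, and 0.22 in WT, where it was -0.05.

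Angptl4 encodes a secreted inhibitor of lipoprotein lipase. Its level was 7.39 in L2AKO LDL, 6.99 in L2AKO control, 5.99 in WT LDL and 4.93 in WT control. The WT control array was the lowest and both L2AKO arrays were above both WT arrays. With LDL it was 0.40 higher in L2AKO, within 2 scanner errors, and 1.06 higher in WT, a 2.08-fold difference. Among the 12977 genes measured in WT, 23 had a higher difference.

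Fabp4 encodes a cytosolic fatty acid binding protein known from adipocytes, macrophages and endothelial cells. It had levels of 2.30 in L2AKO LDL, 2.17 in L2AKO control, 1.00 in WT LDL and 0.30 in WT control. Its order over the arrays was that of Angptl4, with the L2AKO arrays close together. The difference with LDL was 0.13 in L2AKO and 0.69 in WT, or 1.62-fold in WT.

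Cpt1a makes the acylcarnitines that carry long-chain fatty acids into mitochondria, and it was read by 2 probes. The brighter probe gave 5.36 in L2AKO LDL, 5.24 in L2AKO control, 4.87 in WT LDL and 4.41 in WT control. The dimmer gave 0.43, 0.19, -0.19 and -0.86 in the same order of groups. Both probes thus ranked the groups alike. Cpt1a was higher with LDL by 0.12 and 0.24 in L2AKO and by 0.46 and 0.67 in WT, so that only the dimmer probe passed 1.5-fold, in WT.

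Pdk4, the pyruvate dehydrogenase kinase, differed with LDL by 0.25 in L2AKO and by 0.22 in WT. Acadvl, which starts the oxidation of very long chain acyl groups, differed by 0.01 and 0.13, and neither gene passed 2 scanner errors in either line.

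**Figure D2:**
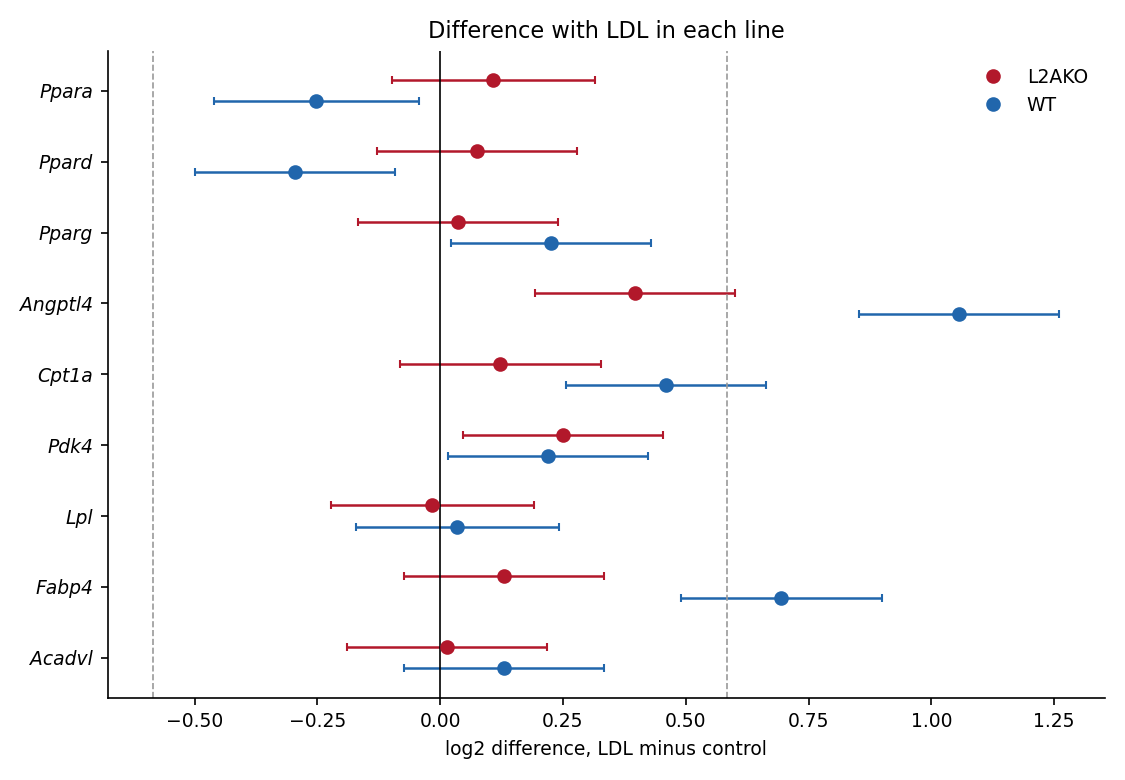
Difference with LDL (log2, LDL minus control, horizontal axis) of the 9 measured members, red for L2AKO and blue for WT. Bars are the scanner software's error and dashed lines mark 1.5-fold. Angptl4 at 1.06 and Fabp4 at 0.69 in WT lie past the line, and no L2AKO point does.

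The L2AKO response minus the WT response was -0.66 ± 0.29 for Angptl4 (scanner error). It was -0.56 ± 0.29 for Fabp4 and -0.34 ± 0.29 for Cpt1a on its brighter probe, both within 2 scanner errors. Angptl4 was the only member beyond 2 scanner errors. It was also the 1 of 9 members at least 1.5-fold lower in this difference, against 3.99% of 12491 genes. None was higher by that much, against 4.77%, and 8.76% of genes passed in either direction. With each array's median in place of its 75th percentile the value for Angptl4 was -0.55, short of 1.5-fold. The difference of responses takes in the second slide, and with 1 array per group it was not tested.

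Without LDL, on 1 slide, Pparg, Angptl4 and Fabp4 stood more than 3-fold higher in L2AKO than in WT, Cpt1a stood higher too, and Pdk4 stood lower. Of 9 measured members 4 were at least 1.5-fold higher, against 15.2% of 12593 genes, and 1 was lower, against 16.6%. A difference in either direction was seen for 31.7% of genes, so the lines differed widely and many genes that are no members had such differences. The members' median was 0.46 and that of all genes was -0.01.

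With LDL, across slides, 3 of 9 members were at least 1.5-fold higher in L2AKO, against 16.9% of 12934 genes, and 1 was lower, against 20.5%, with 37.4% of genes passing in either direction. The median of the members was 0.35 and that of all genes was -0.05. Cpt1a was at 0.49 here on its brighter probe, and passed 1.5-fold with median scaling (0.69), in the authors' deposited values (0.61) and on its dimmer probe (0.61).

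Pparg, the receptor best known for driving fat cell formation, had levels of 3.66 in L2AKO LDL, 3.62 in L2AKO control, 1.99 in WT LDL and 1.76 in WT control. The arrays fell into 2 pairs by line, and within each pair the levels differed by less than 2 scanner errors. Pparg was 1.67 higher in L2AKO with LDL, a 3.18-fold difference, and 1.86 higher without LDL, a 3.63-fold difference.

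Ppard, the receptor found in most tissues, had levels of 1.78 in L2AKO LDL, 1.71 in L2AKO control, 1.95 in WT LDL and 2.25 in WT control. It differed between the lines by -0.17 with LDL and by -0.54 without LDL, the second beyond 2 scanner errors and both short of 1.5-fold, and no neighbouring levels in its order differed by over 2 scanner errors. The first of these values was 0.03 with median scaling.

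Ppara, the receptor known for the fasting response of the liver, was read by 3 probes that disagreed on the lines. The brightest gave levels of -0.76 in L2AKO LDL, -0.87 in L2AKO control, -1.03 in WT LDL and -0.78 in WT control, with no neighbouring levels over 2 scanner errors apart. The next gave -1.22, -1.13, -2.17 and -2.08 in the same order, and the dimmest gave -1.40, -1.28, -3.12 and -2.91. On these 2 probes Ppara was 0.95 and 1.71 higher in L2AKO with LDL and 0.94 and 1.63 higher without LDL, against 0.27 and -0.09 on the brightest. All 3 probes carry the same RefSeq accession in the files, and the transcripts that each binds were not looked up.

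Angptl4 was higher in L2AKO by 1.39 with LDL (2.63-fold) and by 2.06 without LDL (4.16-fold). Fabp4 was higher by 1.30 with LDL (2.46-fold) and by 1.87 without LDL (3.64-fold). Without LDL, 229 of the 12593 measured genes had a higher difference than Angptl4, 280 a higher one than Fabp4 and 282 a higher one than Pparg. Cpt1a was 0.83 higher without LDL on the brighter probe and 1.05 higher on the dimmer.

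Pdk4 went the other way from Angptl4 and Cpt1a between the lines. Its level was 1.50 in L2AKO LDL, 1.25 in L2AKO control, 2.46 in WT LDL and 2.24 in WT control, so both L2AKO arrays were below both WT arrays. The difference between the lines was -0.96 with LDL and -0.99 without LDL. Within each line the Pdk4 levels differed by less than 2 scanner errors.

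Lpl, the gene of the lipase itself, had levels of -0.74 in L2AKO LDL, -0.73 in L2AKO control, -0.38 in WT LDL and -0.41 in WT control on its brighter probe. Its differences between the lines were -0.37 with LDL and -0.31 without LDL. A dimmer Lpl probe gave -3.48, -4.52, -3.53 and -4.03 in that order and was not well above background in L2AKO control, where the lowest level well above background was -4.33. On that probe Lpl was at least 1.79-fold higher in L2AKO LDL than in L2AKO control, across slides. This bound of 0.84 log2 units was less than 2 scanner errors of 0.46 each. In WT the dimmer probe was 0.51 higher with LDL, also within 2 scanner errors. The brighter probe differed with LDL by -0.02 in L2AKO and by 0.03 in WT.

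Acadvl had levels of 6.00 in L2AKO LDL, 5.99 in L2AKO control, 5.65 in WT LDL and 5.53 in WT control. It was higher in L2AKO by 0.35 with LDL and by 0.46 without LDL, under 1.5-fold. Ucp2, a mitochondrial inner membrane carrier, had 1 probe with processed signals of 2.7 in L2AKO LDL, 5.2 in L2AKO control, 9.9 in WT LDL and 13.4 in WT control. None was well above background, so no difference is given for Ucp2.

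**Figure D3:**
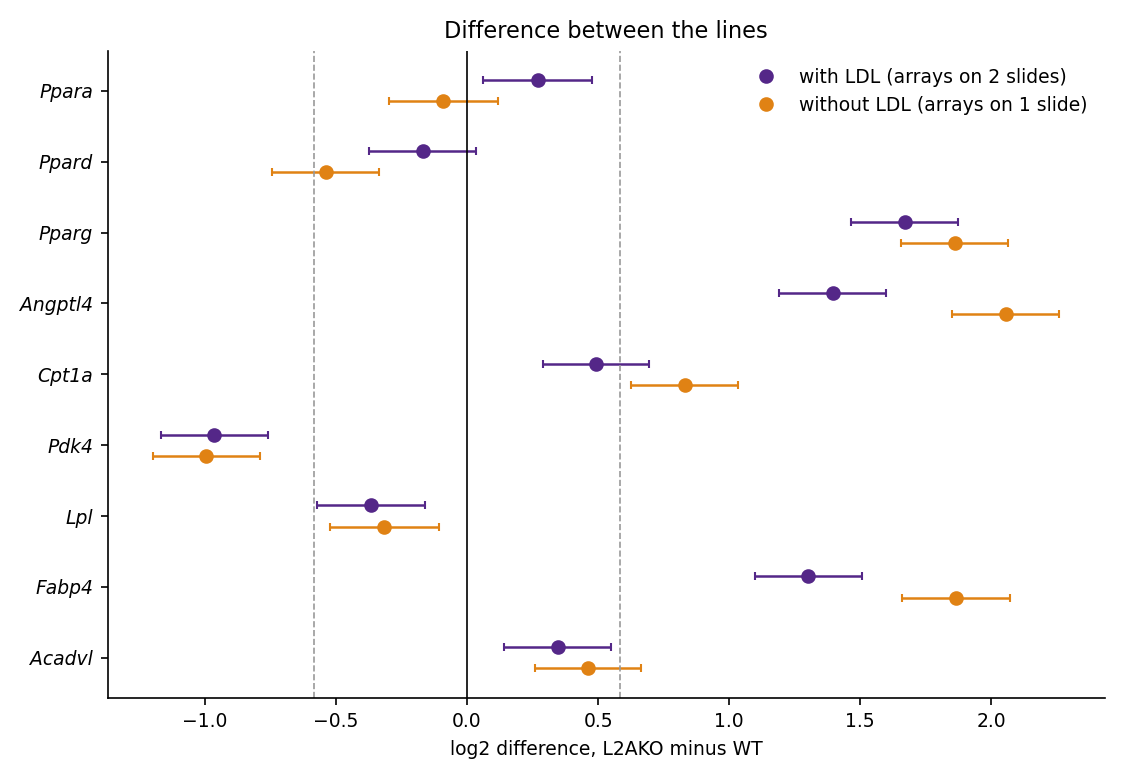
Difference between the lines (log2, L2AKO minus WT, horizontal axis) of the 9 measured members, purple with LDL and orange without LDL. Bars are the scanner software's error and dashed lines mark 1.5-fold. Pparg, Angptl4 and Fabp4 lie past the line on the right and Pdk4 past the line on the left, both with and without LDL.

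**Figure D4:**
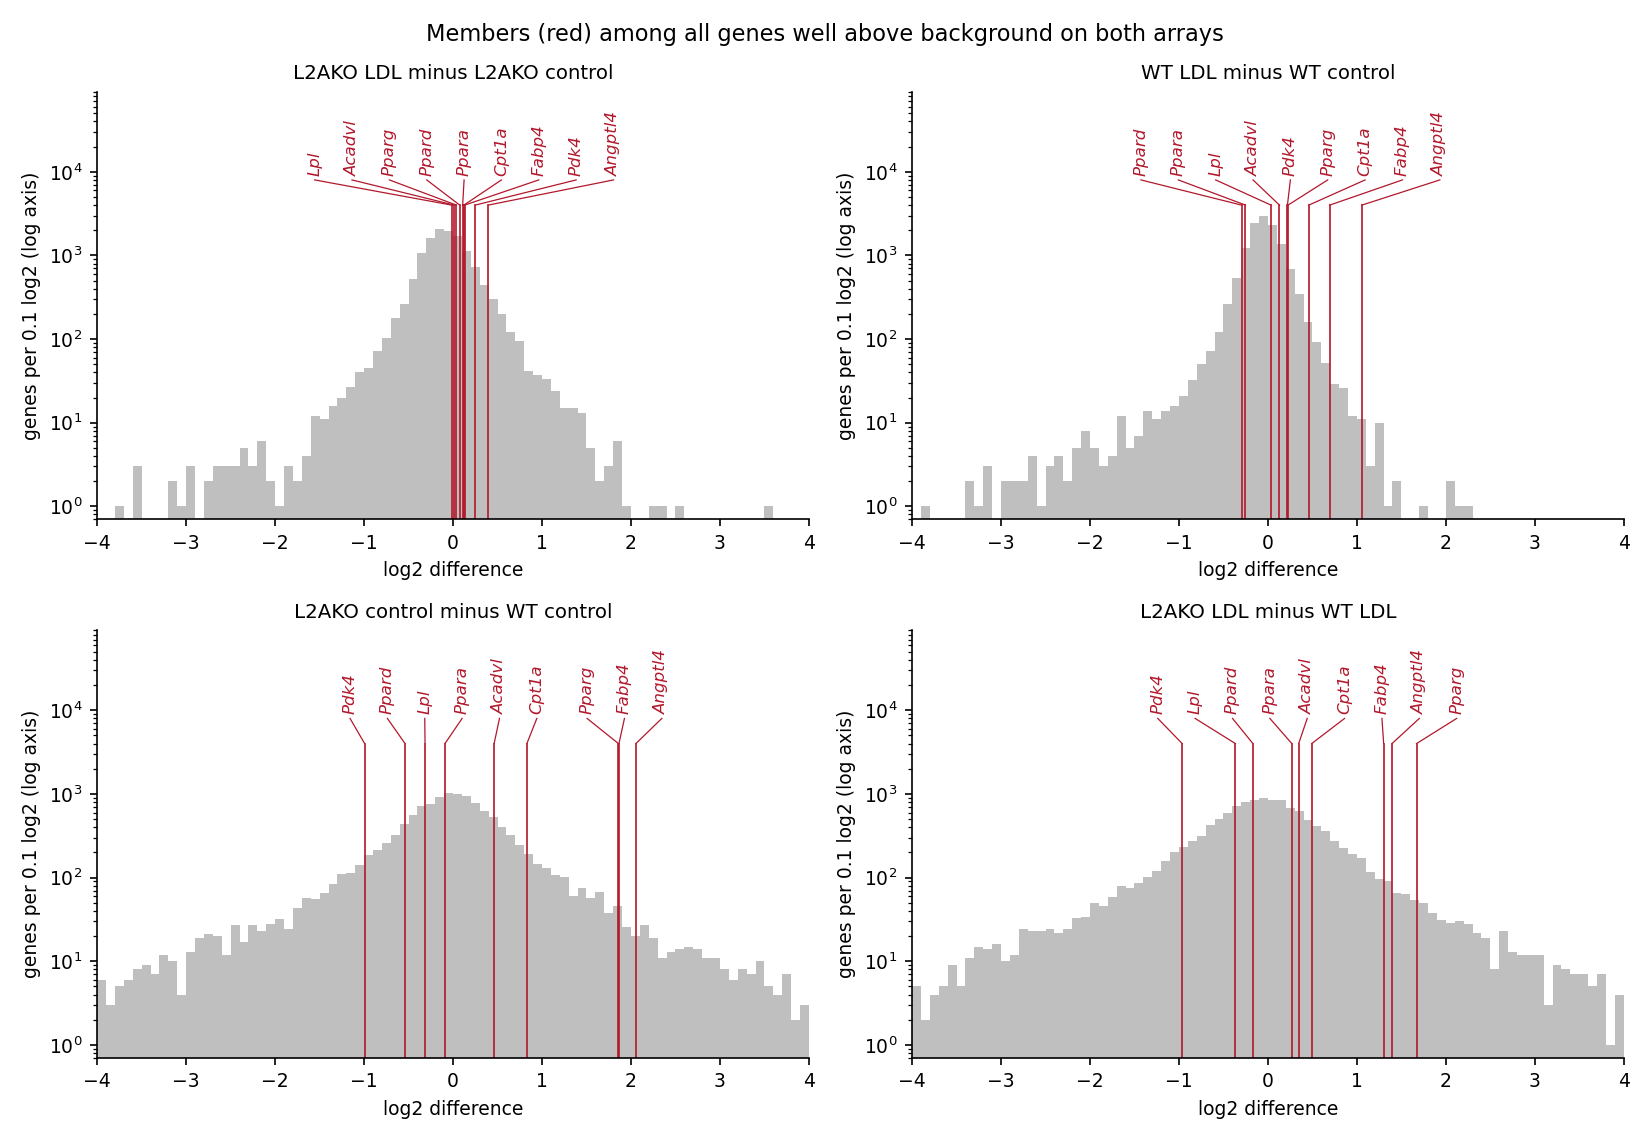
Number of genes (log axis) by log2 difference in bins of 0.1 for the 4 comparisons of 2 arrays, cropped at 4 log2 units on either side, with the 9 measured members as red lines. In WT with LDL, Angptl4 lies in the thin upper tail, past all but 23 genes, whereas between the lines the distribution is wide.

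Markers of other cell types that carry Fabp4 or Pparg were read on the same arrays. Of 7 adipocyte markers, Adipoq, Plin1, Cidec and Lep were not well above background on any array. Lipe was on the arrays with LDL only, at -3.89 in L2AKO and -3.55 in WT, a difference of -0.33. Cfd was well above background in L2AKO LDL only, at -4.63. Retn was on all 4, with levels of -1.96 in L2AKO LDL, -1.42 in L2AKO control, -3.51 in WT LDL and -2.93 in WT control. Summed over the list, the adipocyte signal was 0.41, 0.51, 0.23 and 0.29 times the 75th percentile in the same order of groups. Retn was the brightest probe in each sum, and the sums include probes at background. Of 6 endothelial markers, Kdr, with levels of 2.07 to 2.45, and Gpihbp1 were well above background on all 4 arrays, Pecam1 on 2, and Cdh5, Tek and Cldn5 on none. The summed signal was 5.42, 4.45, 4.64 and 5.72.

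The macrophage list of 6 markers summed to 48.1 in L2AKO LDL, 30.2 in L2AKO control, 27.1 in WT LDL and 30.7 in WT control. Itgam, the brightest of them in these sums, had levels of 5.46, 4.66, 4.63 and 4.82 in the same order, and was 0.80 higher with LDL in L2AKO and 0.83 higher in L2AKO than in WT with LDL. Itgam, Csf1r and Cd68 were well above background on all 4 arrays, Lyz2 on 3, and Adgre1 and Ptprc on none. Cd68 was 1.79 higher in L2AKO with LDL and 1.85 higher without LDL. Adventitial fibroblast markers, 6 in all, summed to 241.3, 240.7, 431.9 and 501.9, and contractile smooth muscle markers to 136.0, 140.8, 175.6 and 199.3, sums that follow their brightest probes. Single markers went both ways between the lines. Without LDL, Tagln was at 1.27 and Cnn1 at 1.11, against Acta2 at -0.75 and Smtn at -0.995, with a median of 0.18 over these 4. Of the fibroblast markers, Pi16 was 4.85 higher in L2AKO with LDL and 4.14 higher without LDL, whereas Dcn was at -1.97 and -1.69. Their part in the member differences was not tested. In cultures measured as a whole, fewer cells of a type and less RNA per cell cannot be told apart.

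The windows before the transcription starts of the members were searched for the PPAR element, 2 copies of AGGTCA in the same direction with any 1 base between them, and for the single hexamer AGGTCA, on both strands. RefSeq's GRCm38.p6 promoter table matched 7 of the 10 members with 9 starts, and had no entry for Angptl4, Lpl and Fabp4. No window of 250 bases held the full element, which 0.0335% of all 32851 such windows did. This hexamer, which is part of the full element, stood in 4 of the 9 windows, of 3 members, against 14.0% of all windows. These 4 are shown because they are where the hexamer occurs beside members, with the match in capitals, 5′ to 3′ on the strand of the gene.
Pparg, first start, plus strand, chr6:115360894-115361143: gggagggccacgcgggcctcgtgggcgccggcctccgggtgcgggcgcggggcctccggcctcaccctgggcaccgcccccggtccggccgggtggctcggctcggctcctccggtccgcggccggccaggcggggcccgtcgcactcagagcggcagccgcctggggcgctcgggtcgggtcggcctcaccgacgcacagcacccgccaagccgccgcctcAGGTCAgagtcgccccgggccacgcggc
Pparg, second start, plus strand, chr6:115362099-115362348: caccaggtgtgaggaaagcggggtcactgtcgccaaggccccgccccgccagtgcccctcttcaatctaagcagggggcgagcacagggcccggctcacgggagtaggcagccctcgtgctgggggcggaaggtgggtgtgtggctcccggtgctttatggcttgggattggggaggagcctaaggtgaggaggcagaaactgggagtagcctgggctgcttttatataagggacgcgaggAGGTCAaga
Cpt1a, plus strand, chr19:3323051-3323300: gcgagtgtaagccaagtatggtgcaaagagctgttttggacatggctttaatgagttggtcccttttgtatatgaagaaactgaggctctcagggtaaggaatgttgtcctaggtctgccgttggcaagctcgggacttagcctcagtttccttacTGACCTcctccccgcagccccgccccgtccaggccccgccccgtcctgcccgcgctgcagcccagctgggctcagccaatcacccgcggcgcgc
Acadvl, minus strand, chr11:70015429-70015678: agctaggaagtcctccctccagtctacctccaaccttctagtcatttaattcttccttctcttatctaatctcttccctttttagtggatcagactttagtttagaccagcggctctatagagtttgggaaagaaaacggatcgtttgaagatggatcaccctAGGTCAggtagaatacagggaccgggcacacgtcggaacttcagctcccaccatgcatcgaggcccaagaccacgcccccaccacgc
The matches begin 28 and 9 bases before the first and second Pparg starts, 94 before that of Cpt1a, where the hexamer reads on the opposite strand, and 87 before that of Acadvl. The windows of Ppara, Ppard, Pdk4, Ucp2 and the third start of Pparg held none. A match is a stretch of letters only, and elements outside these windows were not searched.

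Other genes of the pathway were read from 7 lists, whose counts stand beside the shares of all genes: 3.34% higher and 4.55% lower with LDL in L2AKO, 1.25% and 2.46% with LDL in WT, 16.9% and 20.5% between the lines with LDL, and 15.2% and 16.6% without LDL. Receptor partners and coregulators differed little with LDL. Of 14 measured members of 15, 1 passed 1.5-fold upwards with LDL in L2AKO, the retinoid X receptor gene Rxrg at 0.69, and none was higher or lower in WT. Rxrg had levels of 2.18 in L2AKO LDL, 1.49 in L2AKO control, 1.56 in WT LDL and 1.69 in WT control, so only the array of the second slide stood apart. Between the lines without LDL 3 were higher and 1 lower, with the coactivators Ncoa1 at 1.45, Ppargc1a at 0.78 and Ncoa3 at -0.66 among them.

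Fatty acid oxidation genes did not pass 1.5-fold with LDL for any of the 22 of 24 members measured in either line, with medians of -0.11 in L2AKO and 0.00 in WT.

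Between the lines without LDL the fatty acid oxidation list had 3 of 22 members higher and 2 lower, against 15.2% and 16.6% of all genes, with a median of 0.18. Etfa, part of the electron carrier of acyl-CoA oxidation, was at 0.76, the thiolases Acaa2 and Acaa1a were at 0.65 and 0.63, and Cpt1b, the muscle form of the importer, was at -1.33. With LDL none was higher and 3 of 24 were lower.

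Genes of fatty acid uptake, binding and activation lay on both sides between the lines. Of 12 measured members of 14, 2 were higher and 6 lower in L2AKO with LDL (median -0.52), and 2 were higher and 5 lower without LDL (median -0.39). Among all genes, 16.9% were higher and 20.5% lower with LDL, and 15.2% higher and 16.6% lower without. The binding protein gene Fabp3 was at 1.90 with LDL and 1.80 without, and Fabp5 was at -1.01 and -1.24. Acsl4, an acyl-CoA synthetase that favours arachidonic acid, was at -1.43 and -1.40, and Acsl1 at -1.19 and -0.90. For LDL against control, 2 of 12 were lower in each line, against 4.55% of all genes in L2AKO and 2.46% in WT, and 0 were higher. Acsl3, a synthetase of lipid droplets, was at -1.30 in L2AKO and -1.15 in WT. Acsl4 was at -0.61 and -0.58 in the same order, and the acyl-CoA binding protein gene Dbi at -0.55 and -0.70. The fatty acid translocase gene Cd36 was well above background on 0 of 4 arrays.

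Of 9 measured genes of lipase maturation, anchoring and inhibition, out of 15, none passed 1.5-fold with LDL in either line. Between the lines without LDL the protein convertase gene Pcsk6 was at -2.57, the lipase inhibitor gene Angptl8 at 1.08 and Sel1l, which is needed for lipase to leave the endoplasmic reticulum, at 0.77. Gpihbp1, which anchors the lipase on capillary endothelium, differed by -0.37 with LDL and by -0.13 without.

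Among 22 other PPAR targets, 1 of 15 measured was higher with LDL in L2AKO, Cidea at 0.93 across slides. In WT 0 of 14 passed, and Cidea was not among these 14. Cidea, a lipid droplet protein of brown fat, was not well above background in WT, at -4.51 with LDL and -5.40 without. It was at least 3.42-fold higher in L2AKO than in WT with LDL and at least 1.59-fold higher without LDL. Between the lines without LDL, Mgll, the monoglyceride lipase, was at 1.97, Txnip at 1.27 and the glycerol kinase gene Gk at -2.17. Counts were 3 higher and 2 lower both with and without LDL.

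Genes of the pyruvate dehydrogenase complex, its kinases and its phosphatases were all measured, 10 of 10. Between the lines without LDL, 2 were higher, Dld at 1.27 and the kinase gene Pdk2 at 0.83, and 3 were lower, the kinase genes Pdk3 at -0.74 and Pdk1 at -0.61 and the phosphatase gene Pdp2 at -0.74. Pdk2 and Pdk4 thus lay on opposite sides. With LDL, Pdp2 was the only one of the 10 past 1.5-fold, at -0.65 in L2AKO and -0.78 in WT. Of 6 uncoupling proteins and nucleotide carriers 4 were measured, none of which passed for LDL against control in either line. Between the lines without LDL, Slc25a27 was higher at 0.84, and Slc25a14 at -0.74 and Slc25a5 at -0.70 were lower. With LDL none was higher, and Slc25a14 at -1.33 and Slc25a5 at -0.83 were lower. Ucp3 was well above background in WT LDL only, at least 2.38-fold above L2AKO LDL, across slides. Ucp1 was well above background on 0 of 4 arrays.

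Genes with the nearest profile over the 4 arrays were sought for the 4 members that spanned at least 1 log2 unit, among 12490 genes, as the smallest root mean square distance between mean-centred levels. With 4 arrays many genes can share a profile by their differences between lines alone: 558 genes lay within 0.2 log2 units of Pdk4, 175 of Pparg, 49 of Fabp4 and 7 of Angptl4. The nearest to Angptl4 were Prl2c5 (0.07), the cholesterol exporter gene Abca1 (0.13) and Aox3 (0.15). Ugt1a6a (0.05), Abca1 (0.08) and Klf11 (0.08) were nearest to Fabp4, Specc1, Cerox1 and Ndn (0.02 to 0.05) to Pparg, and Satb1, Prps2 and Septin6 (0.03 each) to Pdk4. Abca1 had levels of 2.49 in L2AKO LDL, 2.27 in L2AKO control, 1.30 in WT LDL and 0.41 in WT control.

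**Figure D5:**
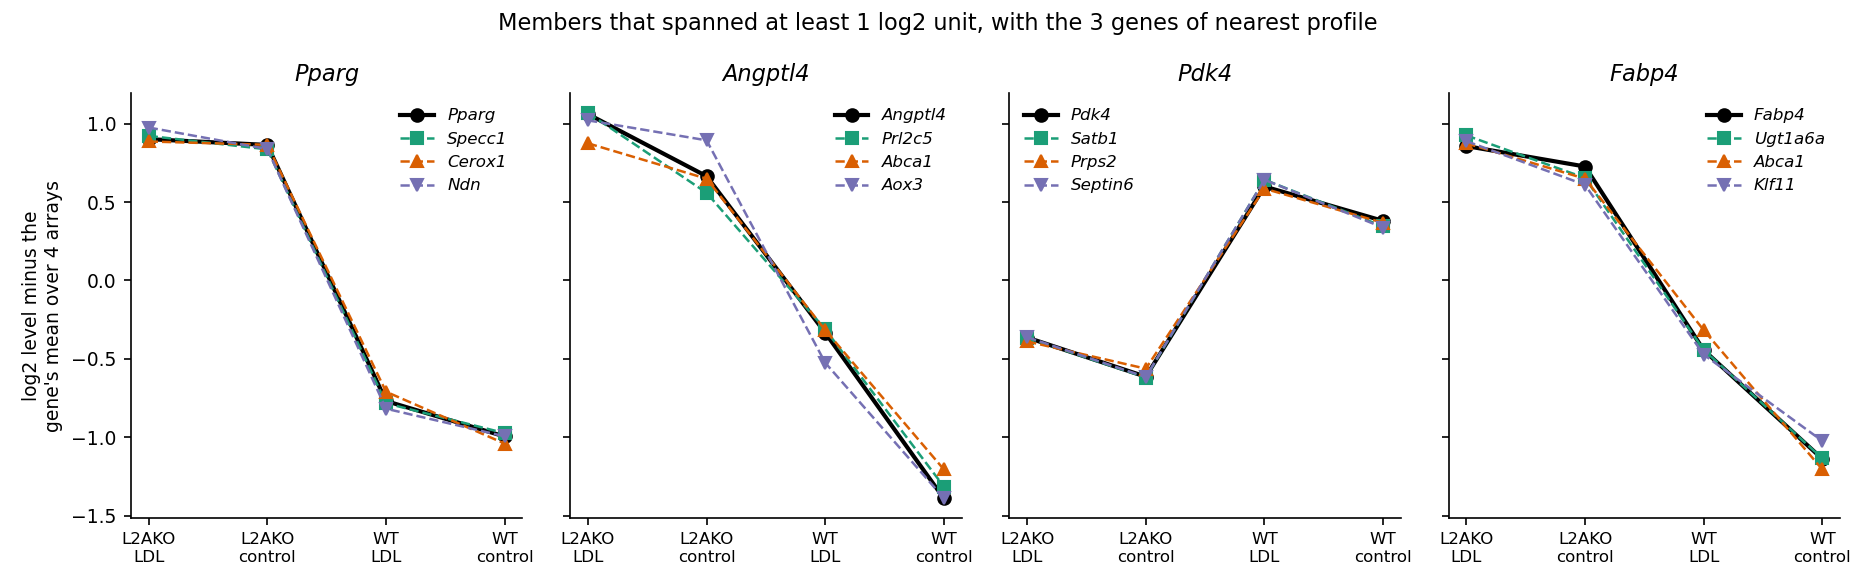
Log2 level minus the gene's mean over the 4 arrays (vertical axis) for Pparg, Angptl4, Pdk4 and Fabp4 in black, each with the 3 genes of nearest profile in colour. The lines connect the 4 arrays and stand for no order in time, and Abca1 follows both Angptl4 and Fabp4 within 0.13 log2 units.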

How the data were processed

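Expression was measured in 4 samples, 1 array for each group, and grouped by the sample titles. The deposited scanner files hold a spot intensity on a linear scale, with local background removed. Per the file headers the software was Feature Extraction 10.7.3.1. A value table deposited by the authors is an intensity as well (column medians 57.4 to 57.6), tracking the unsubtracted median spot signal. RMA and oligo are named in the submitters' processing notes. The table is not on a log scale, and its scaling between arrays is unknown.

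Control spots and outlier spots were left out, log2 spot values were averaged by probe, and the 75th percentile over an array's probes was subtracted. RefSeq accessions, without version, named 28330 probes through a GRCm38.p6 gene table. The files name build mm9, so no coordinates were taken from them. The probe with the highest mean stood for a gene, if well above background on every array compared. A probe below background on 1 side gave a bound against the higher of its value and the lowest level well above background there.

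Members and lists were chosen with earlier results of these data known. Named genes were all members, at most 4 genes past 1.5-fold per list and comparison, the 3 nearest profiles, Lamp2 and marker genes, and some list genes are not reported here. Alternatives were 3 scalings, normexp with an offset of 50 on the median spot signal, the authors' deposited values, 3 filters, the mean over probes and, added after the data were seen, each gene's dimmest probe. The calls were tested on simulated data. Computation used R 4.3.3, limma 3.58.1, Python 3.11.15, numpy 2.4.6, pandas 2.3.3 and matplotlib 3.10.9.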

Additional observations from a re-analysis of the deposited data

Results flagged for a closer look

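Some members differed with LDL in opposite directions in the 2 lines, by small amounts, and none of these contrasts between lines was tested, since each group had 1 array. Ppara was at 0.11 in L2AKO and -0.25 in WT on its brightest probe, while its other 2 probes were below 0 in both lines. Ppard was at 0.0749 in L2AKO and -0.296 in WT. Lpl was at -0.0157 in L2AKO and 0.0346 in WT on its brighter probe. Its dimmer probe, not well above background in L2AKO control, was above 0 in both lines. Between the lines, Ppara on its brightest probe was at 0.27 with LDL and -0.091 without LDL. On the probes that stand for the genes, all of these were under 1.5-fold and within 2 scanner errors. The values from L2AKO LDL take in the second slide.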

How the results depend on the processing

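Of 45 member differences 12 were past 1.5-fold, and 11 of these stayed past it on the same side in all alternatives that gave a value, out of 10. The other one was the difference of LDL responses for Angptl4, which ranged from -0.91 after quantile normalisation to -0.55 with median scaling. None of the 12 changed sign, and 7 of the smaller differences did in at least 1 alternative. Of 50 counts of members past 1.5-fold under an alternative, 48 were within 1.5 times the reported count. The exceptions were the difference of responses, where the count was 0 with median scaling, and L2AKO with LDL, where it was 1 with no filter on dim probes, that 1 being Ucp2, which was not well above background. Median scaling moved the median of all genes by 0.11 for L2AKO with LDL against control, by 0.20 between the lines with LDL and by 0.11 for the difference of responses. Ppara depended on the probe: without LDL the lines differed by -0.09 on its brightest probe, by 0.83 on the mean over probes and by 1.63 on its dimmest. No paired analysis was possible because each group had 1 array, and for the same reason no replicate could be left out. Signal over background limits Ucp2 and the dimmer Lpl probe, and the number of arrays limits every value.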
